A study of Nicotiana tabacum with 8 samples.

Results

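Among 135146 assembled unigenes of tobacco leaf, 50 were listed at exactly 0 in all 4 control libraries and at a log2 value of at least 3.5 in all 4 cold libraries. They are called here the cold-only unigenes. The values that chose them are the same values that set cold against control, so the gap between cold and control is described below without a test. In all, 53 unigenes met these limits. The other 3 are unigenes of regulators that the study names (ELF4, CRF6 and HSFA4B), and they were left out of the 50 together with c44821_g1 (MYB306) and c71056_g1 (DREB2H), which did not meet the limits.

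The RNA came from leaves of 2 cultivars of Nicotiana tabacum, K326 and CB-1, grown in pots to the 6-leaf stage, and leaves of several plants were pooled in each sample. Each of the 4 groups had 2 libraries: K326 kept at 4 °C for 1 day (KT1 and KT2), CB-1 kept at 4 °C for 1 day (CT1 and CT2), K326 control plants that stayed in the warm growth chamber (KC1 and KC2) and CB-1 control plants treated in the same way (CC1 and CC2). The labels name no transgene, mutation or chemical treatment in any group. The only annotation of tissue is the label "leaf", and the table names unigenes by assembly number alone, so leaf markers could not be checked.

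Plants respond to cold by switching on regulators within hours, among them the DREB1 (CBF) factors, and these in turn raise the cold-regulated (COR) genes that protect membranes and proteins. Tobacco is an allotetraploid, so many genes exist as a pair of similar copies, one from each parental species. In a de novo assembly such copies, along with alleles, splice forms and fragments of a transcript, may come out as separate unigenes of the same component. A component is a group of contigs that the assembler joined by shared sequence, and its number is the part of a unigene's name before "_g".

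The deposited value of a unigene is log2(abundance + 1), where the abundance was estimated by RSEM from reads mapped back to the assembly. The sources used here do not say how the abundance was scaled or whether it was divided by length, so the order of levels between unigenes holds for the deposited scale only. Summed over all unigenes the abundance was between 409394 and 469248 per library, and between 41878 and 51331 unigenes were above 0. The number of reads behind a single value is not in the table, and an exact 0 may be an absent transcript or a failed estimate. The control libraries did not group by cultivar: over the unigenes tested, the median absolute difference was 0.15 between KC2 and CC1, against 0.24 between KC1 and KC2 and 0.21 between CC1 and CC2. The cold libraries did not group clearly by cultivar either. This difference was 0.27 between KT2 and CT2, against 0.28 between KT1 and KT2 and 0.31 between CT1 and CT2. The other cold pairs across cultivars lay further apart, between 0.33 and 0.37. The cold-only unigenes were at 0 in each control library.

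The limit of 3.5 placed every one of the 50 unigenes high among those detected, at percentile 88.4 or above in each cold library. Their values ran from 3.69 to 9.45 in KT1 (median 5.24), from 3.61 to 9.21 in KT2 (median 5.01), from 3.79 to 8.83 in CT1 (median 5.10) and from 3.66 to 8.33 in CT2 (median 5.04). The medians of the 4 libraries thus lay within a narrow band. The median cold-only unigene stood at percentile 95.7 of all unigenes above 0 in KT1, 95.2 in KT2, 96.2 in CT1 and 95.1 in CT2. Together the 50 made up 1.04% of the summed abundance in KT1, 0.736% in KT2, 0.622% in CT1 and 0.672% in CT2, with the highest share in KT1. By the mean of the 4 cold libraries, 6 unigenes were at 7 or more, 4 were between 6 and 7, 18 between 5 and 6, and 22 between 4 and 5.

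**Figure D1:**
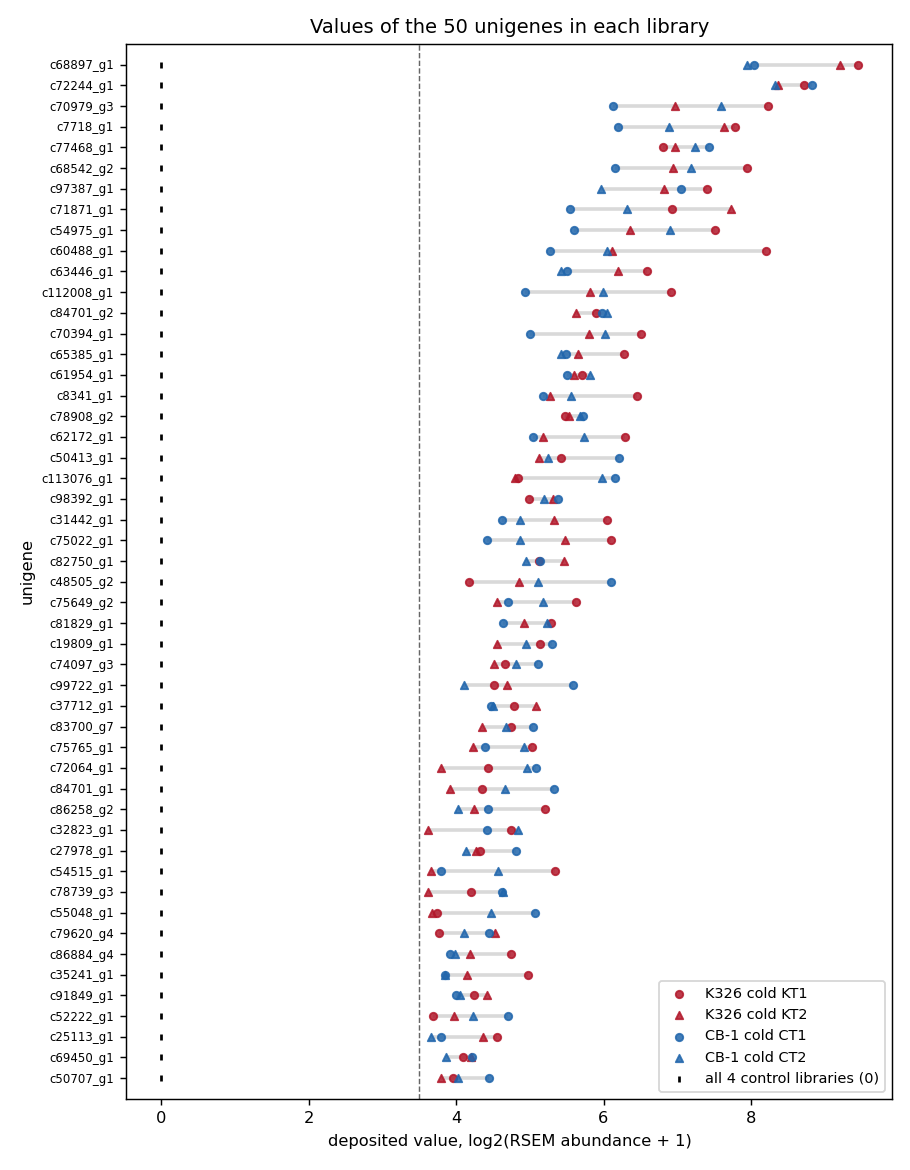
Deposited value, log2(RSEM abundance + 1), of each of the 50 unigenes in KT1 and KT2 (red), CT1 and CT2 (blue) and the 4 control libraries (black marks at 0), ordered by cold mean, with the limit of 3.5 dashed and a grey bar over the cold range. The cold means run from 8.66 for c68897_g1 to 4.06 for c50707_g1, and no control mark leaves 0.

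The highest cold mean belonged to c68897_g1, with values of 9.45 in KT1 and 9.21 in KT2, and 8.04 in CT1 and 7.94 in CT2. Both K326 libraries were above both CB-1 libraries. The second, c72244_g1, had 8.72 and 8.37 in KT1 and KT2, and 8.83 and 8.33 in CT1 and CT2, so the cultivars overlapped. These 2 unigenes held 25.8% of the summed abundance of the 50 in KT1, 29.7% in KT2, 26.9% in CT1 and 20.6% in CT2.

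After them came c70979_g3, at 8.24 in KT1 and 6.97 in KT2, and 6.13 in CT1 and 7.59 in CT2. CT2 lay above KT2, so the cultivars overlapped. The unigene c7718_g1 had 7.78 and 7.63 in KT1 and KT2, and 6.20 and 6.89 in CT1 and CT2, without overlap. For c77468_g1 the values were 6.81 and 6.97 in KT1 and KT2, and 7.43 and 7.24 in CT1 and CT2, with both CB-1 libraries on top. The unigene c68542_g2 repeated the pattern of c70979_g3, with 7.95 in KT1 and 6.94 in KT2, and 6.15 in CT1 and 7.18 in CT2.

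The remaining 4 of the top 10 were c97387_g1, c71871_g1, c54975_g1 and c60488_g1, with cold means between 6.41 and 6.81. In c97387_g1 the values were 7.40 and 6.82 in KT1 and KT2, and 7.05 and 5.97 in CT1 and CT2, and the cultivars overlapped. In c71871_g1 they were 6.93 and 7.73 in KT1 and KT2, and 5.54 and 6.32 in CT1 and CT2, with K326 on top in each library. Of the 10 unigenes with the highest cold mean, 8 had a higher mean in K326 than in CB-1, and of the other 40 it was 19.

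Unigenes close to the limit of 3.5 show what it includes. Just inside it were c78739_g3, whose lowest cold value was 3.61, c32823_g1 (3.62) and c25113_g1 (3.66). Just outside, and also at 0 in every control library, were c92449_g1 with a lowest cold value of 3.49, c83438_g1 (3.48) and c18299_g1 (3.47). With a limit of 3 in place of 3.5 the rule took 97 unigenes, and with a limit of 4 it took 37.

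An exact 0 in all controls was rare among unigenes that were high in the cold. Of the 4315 unigenes at 3.5 or more in all 4 cold libraries, 53 were above 0 in no control library, 35 in 1, 29 in 2, 49 in 3 and 4149 in all 4. The 53 are 1.23% of the 4315, whereas the opposite pattern, 0 in all cold libraries and at least 3.5 in all controls, held for 17 unigenes, or 0.340% of the 4999 that were at 3.5 or more in all controls. At a limit of 1 the shares were 5.73% for the cold-only pattern and 2.97% for the opposite, and at a limit of 5 they were 1.19% (20 of 1675 unigenes) and 0 (of 1865). A cold mean above 4.97, the highest control mean among the 17 (that of c74819_g3), was reached by 29 of the 50 cold-only unigenes. These counts have no test, because the limit and the direction were known from the data.

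**Figure D2:**
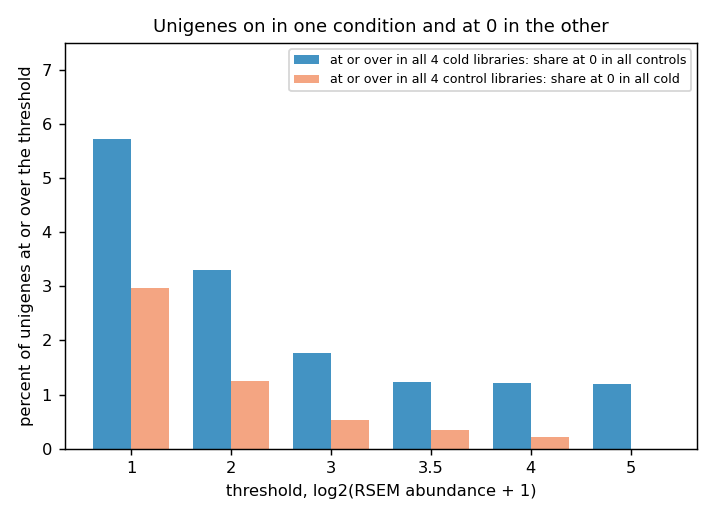
Percent of the unigenes at or over a log2 limit in all 4 cold libraries that were at 0 in all 4 controls (blue), and the same with cold and control exchanged (orange), at limits of 1, 2, 3, 3.5, 4 and 5. The blue bar was above the orange one at every limit, with 1.23% against 0.340% at 3.5.

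Single zeros beside a high replicate were fewer in the cold libraries than in the controls. A value of 0 beside a replicate at 3.5 or more occurred in 8 unigenes for K326 cold and 10 for CB-1 cold, against 96 for K326 control and 74 for CB-1 control. The smallest value above 0 was 0.001 in 7 libraries and 0.002 in KC2. Leaving out KC1 from the rule gave 68 unigenes and leaving out KC2 gave 57, and without CC1 or CC2 the numbers were 56 and 54.

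Apart from the floor of 3.5, the level within the cold was not set by the limits. The 4 cold values of a unigene spanned between 0.24 and 2.92 log2 units, with a median span of 1.10. The span was under 0.5 in 7 unigenes, over 1 in 29 and over 2 in 3. The unigene with the closest values was c78908_g2, with 5.48 and 5.53 in KT1 and KT2, and 5.72 and 5.68 in CT1 and CT2. The next were c61954_g1 (span 0.32), c69450_g1 (0.36), c98392_g1 (0.40) and c91849_g1 (0.41). These 5 were of middle or low level, with cold means from 4.09 to 5.66.

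The widest span was that of c60488_g1, with 8.20 in KT1 and 6.12 in KT2, and 5.28 in CT1 and 6.05 in CT2. KT1 alone stood far above the rest, by 2.08 over its own replicate. In c54515_g1 the value was 5.34 in KT1 and 3.66 in KT2, and 3.80 in CT1 and 4.57 in CT2, so the K326 replicates enclosed both CB-1 libraries. In c99722_g1 it was the CB-1 replicates that enclosed the other cultivar, with 4.52 and 4.69 in KT1 and KT2, and 5.59 and 4.11 in CT1 and CT2. Replicates of c54975_g1 stood apart in both cultivars, with 7.51 in KT1 and 6.37 in KT2, and 5.60 in CT1 and 6.91 in CT2. Replicates of the 50 unigenes lay a median of 0.50 apart in K326 and 0.41 apart in CB-1, and those of all 31884 unigenes tested lay 0.28 and 0.31 apart.

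The question of whether the cultivars differed in how strongly these unigenes were expressed in the cold was tested with limma, in a fit of the 4 group means over the 31884 unigenes that reached 1 in 2 or more libraries. A unigene was called at an adjusted p-value (Benjamini-Hochberg, over all unigenes tested) under 0.05 and a log2 difference over 1 in size. Of the 50 cold-only unigenes 2 were called, c68897_g1 as higher and c113076_g1 as lower in K326. Over all unigenes tested, 129 were called, or 0.405%, with 0.248% higher and 0.157% lower in K326. The share of the 50 that was called (4%) rests on these 2 unigenes alone, and 48 did not pass. It cannot be read against the background, because the choice of members set their control values to 0: the median standard error was 0.24 for the 50 and 0.29 over all unigenes tested in this fit, but 0.29 for the 50 and 0.26 over all from the cold libraries alone.

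In c68897_g1 the mean was 9.33 ± 0.17 in K326 cold and 7.99 ± 0.07 in CB-1 cold (SD, n = 2 each). The log2 difference was 1.34 (standard error 0.15, adjusted p = 0.0358 by limma), and both K326 libraries were above both CB-1 libraries. In c113076_g1 the values were 4.84 in KT1 and 4.80 in KT2, and 6.16 in CT1 and 5.98 in CT2, with all K326 values below all CB-1 values. The log2 difference of c113076_g1 was −1.25 (standard error 0.15, adjusted p = 0.0425 by limma). The control libraries of these unigenes have no spread at all, since they are at 0, and the fit takes them into its estimate. From the cold libraries alone, limma gave an adjusted p of 0.222 for c68897_g1 and 0.103 for c113076_g1, and called 0 of the 50 and 0 of all unigenes, with 8 of the 50 at an unadjusted p under 0.05, where the background in the same fit was 11%. Leaving out any single library other than CT2 ended both calls, and over the 8 fits that each left out 1 library the adjusted p-value of c68897_g1 ran between 0.0422 (without CT2) and 0.115 (without CC2).

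The largest differences in favour of K326 after c60488_g1 (1.50) and c71871_g1 (1.40) were those of c68897_g1, c7718_g1 (1.16) and c75022_g1 (1.14). In c75022_g1 the values were 6.10 and 5.48 in KT1 and KT2, and 4.42 and 4.87 in CT1 and CT2, without overlap. Only c68897_g1 of these 5 passed the threshold, and the adjusted p-values of the other 4 were 0.398 for c60488_g1, 0.151 for c71871_g1, 0.101 for c7718_g1 and 0.122 for c75022_g1 (limma).

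On the other side, c48505_g2 (−1.10), c55048_g1 (−1.06), c72064_g1 (−0.91) and c84701_g1 (−0.86) followed c113076_g1. The unigene c55048_g1 had 3.75 and 3.68 in KT1 and KT2, and 5.07 and 4.48 in CT1 and CT2. In c72064_g1 the values were 4.43 and 3.79 in KT1 and KT2, and 5.08 and 4.96 in CT1 and CT2. In each of these 4 unigenes both K326 libraries were below both CB-1 libraries, and their adjusted p-values lay between 0.103 and 0.271 (limma).

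**Figure D3:**
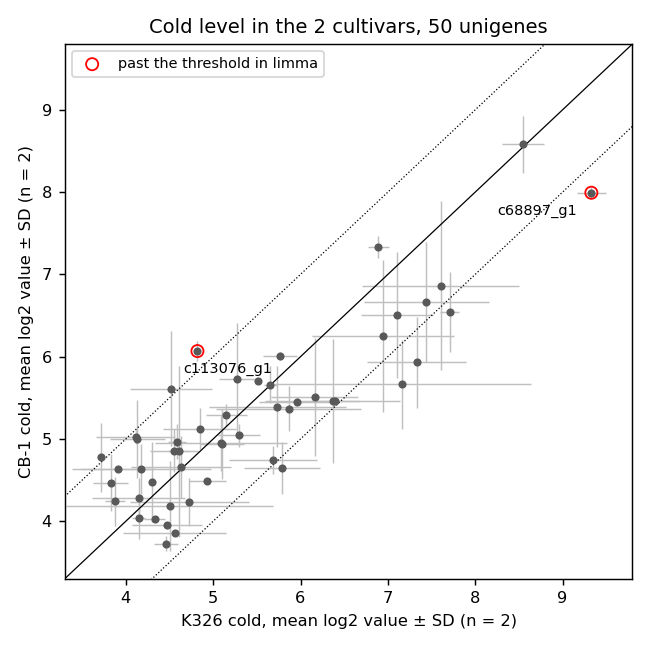
Mean log2 value in K326 cold (x axis) against CB-1 cold (y axis) for the 50 unigenes, with bars for the SD of 2 libraries, a solid line at equality and dotted lines at a difference of 1. The unigenes c68897_g1 (difference 1.34) and c113076_g1 (−1.25) are ringed as past the threshold in limma. That fit includes the zeros of the controls, which the choice of members set, and neither was called from the cold libraries alone. Of the 50, 42 lie within a difference of 1.

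Across the cold-only unigenes the mean was higher in K326 for 27 of 50 (54%) and the median difference was 0.16, against 45.2% and 0 over all unigenes tested. The difference was within 0.5 in 26 unigenes, over 1 in 5 and under −1 in 3. Both K326 libraries were above both CB-1 libraries in 13 unigenes, where the background over all unigenes tested was 19%, and below both in 12, where it was 18.5%. Without KT1 the median difference was −0.034 and 24 of 50 were higher in K326, and without KT2 they were 0.26 and 32. At an unadjusted p under 0.05 in the fit over all groups there were 9 higher and 8 lower (background 13.5%), a count that the zeros in the controls helped to set and from which nothing is read.

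Because the controls are at 0, the difference between the cultivars in their response to cold has the same size as the difference between their cold levels, but a larger error. By limma 0 of the 50 were called for a difference in response, where the background was 0% of all unigenes tested. The smallest adjusted p was 0.228 (limma), and 10 of the 50 were at an unadjusted p under 0.05 (background 9.2%), a count that is likewise not read against the background because the error includes the zeros in the controls. For 1 unigene with 2 libraries a group, the smallest p that an exact permutation test allows is 0.333.

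The differences between replicates were related across the 50 unigenes. KT1 was above KT2 in 38 of 50 (76%), compared with 36.2% of all unigenes tested and 41.5% of the 4315 that were at 3.5 or more in the cold. CT2 was above CT1 in 23 (46%), compared with 49.8% and 58.0%. Across the 50, Pearson's correlation of the difference KT1 minus KT2 with CT2 minus CT1 was 0.55, a description over unigenes that share their libraries, while it was −0.02 over all unigenes tested and 0.08 over the 4315. The unigenes that were highest in KT1 relative to KT2 thus tended to be higher in CT2 than in CT1, as in c70979_g3, c68542_g2 and c54975_g1.

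In 20 of the 50 unigenes KT1 was above KT2 and CT2 above CT1 at once, which is 40%, compared with 18.0% of all unigenes tested and 24.3% of the 4315. Of these 20, 15 had a higher mean in K326, with a median difference of 0.51. Of the other 30, 12 were higher in K326, with a median difference of −0.16. These sets were formed from the data after their values were seen, so the contrast between them has no test.

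**Figure D4:**
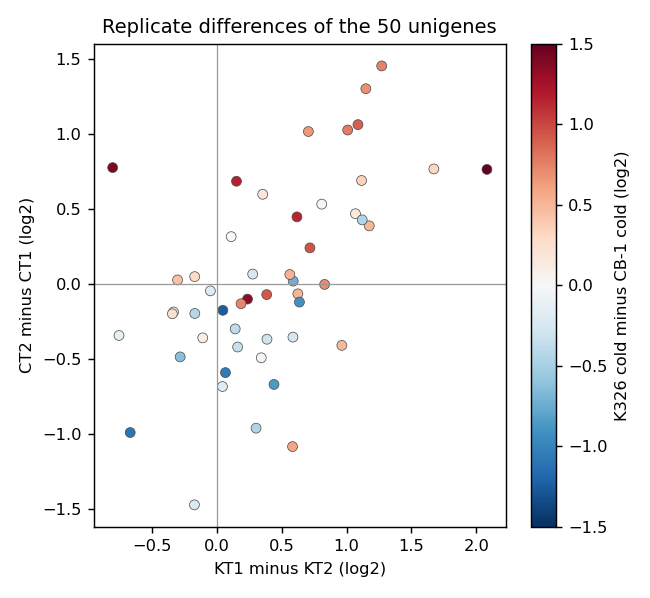
Difference KT1 minus KT2 (x axis) against CT2 minus CT1 (y axis) on the log2 scale for the 50 unigenes, coloured by K326 cold minus CB-1 cold. The points slope upwards (Pearson's r 0.55 across 50 unigenes), and 38 of them lie to the right of 0.

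The assembly gives one further view of these unigenes. The 50 fell into 49 components, and 31 of them (62%) were alone in theirs, close to the 62.4% of the other 4265 unigenes that were at 3.5 or more in the cold. Only c84701 held a pair of cold-only unigenes. Its c84701_g2 had 5.90 and 5.62 in KT1 and KT2, and 5.98 and 6.04 in CT1 and CT2, and its c84701_g1 had 4.35 and 3.91 in KT1 and KT2, and 5.33 and 4.66 in CT1 and CT2. In each of them both K326 libraries were below both CB-1 libraries, by 0.25 in c84701_g2 and 0.86 in c84701_g1 on average, which did not pass the test (adjusted p = 0.609 and 0.237, limma).

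The other 17 components with more than 1 unigene held 52 partners, meaning unigenes of the same component that are not cold-only. Of these, 49 were above 0 in some library, 26 were above 0 in all control libraries and 12 were at 0 in all of them. A further look at the 12 showed 7 that were also above 0 in all cold libraries, below the limit of 3.5 in at least 1. The partners were not chosen by their values, though RSEM may divide reads between them and the cold-only unigene of the component where their sequences are alike.

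Most of the partners that changed in the cold rose. Of the 39 partners that could be tested, 25 were called in K326 and 24 in CB-1, where the backgrounds were 34.2% and 32.9% of all unigenes tested. In detail, 18 rose in K326 (46.2%), where 14.7% of all unigenes tested rose, and 7 fell (17.9%), where 19.5% of all fell. In CB-1 17 rose (43.6%, against 15.5% of all) and 7 fell (17.9%, against 17.4%). A partner that reached 1 in cold libraries alone, such as c48505_g1 or c54515_g2, entered the test through those values and could only rise. One that reached 1 in controls alone, such as c83700_g5, could only fall. The filter thus set part of these counts, and an excess over the background was not tested. Of the 39, 16 rose in both cultivars, 6 fell in both and 12 were called in neither. The median log2 change of the partners was 1.74 in K326 and 0.88 in CB-1, whereas over all unigenes tested it was −0.31 and −0.20. Under median-ratio scaling of the libraries these overall medians were 0 in K326 and 0.00 in CB-1, with 20 partners up and 6 down in K326 and 17 up and 6 down in CB-1. The share of calls that rose, over all unigenes, moved under this scaling to 57.9% in each cultivar, compared with 42.9% in K326 and 47.0% in CB-1 as deposited.

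In component c82750 every partner that could be tested rose. These partners reached 1 in cold libraries alone, so the filter admitted them through their cold values. Its cold-only unigene c82750_g1 had 5.13 and 5.47 in KT1 and KT2, and 5.15 and 4.95 in CT1 and CT2. Its partner c82750_g2 had 4.98 and 5.80 in KT1 and KT2, and 6.47 and 5.71 in CT1 and CT2, against 0.37 and 0 in KC1 and KC2 and 0 in CC1 and CC2. The partners c82750_g2, c82750_g4 and c82750_g5 rose by 5.21, 3.57 and 3.65 in K326 and by 6.09, 4.47 and 3.60 in CB-1, with adjusted p-values between 0.000325 and 0.000926 (limma). The fifth unigene, c82750_g3, was above 0 in CT1 alone.

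In c79620 a cold-only unigene stood beside a partner that was listed only in the controls. The cold-only c79620_g4 had 3.77 and 4.53 in KT1 and KT2, and 4.45 and 4.11 in CT1 and CT2. Its partner c79620_g3 was at 0 in all cold libraries, against 3.93 and 3.09 in KC1 and KC2 and 3.26 and 3.67 in CC1 and CC2. It fell by 3.51 in K326 and by 3.46 in CB-1 (standard error 0.30 each, adjusted p = 0.000783 and 0.000845 by limma). The filter admitted this partner through its control values, and it could only fall. Like c79620_g2, c79620_g5, c74097_g5 and c70979_g1, it was named for its high control mean, a choice that favours falls.

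A partner in the same component, c79620_g2, was at 2.52 and 2.66 in KT1 and KT2, and 2.74 and 2.86 in CT1 and CT2, against 4.75 and 4.19 in KC1 and KC2 and 4.34 and 4.43 in CC1 and CC2. It fell by 1.88 in K326 and by 1.58 in CB-1 (adjusted p = 0.00167 and 0.00296, limma). The most abundant partner, c79620_g5, was between 7.24 and 7.85 in the cold libraries and between 7.92 and 8.17 in the controls. Its log2 change in K326 missed the threshold by its size (−0.61, adjusted p = 0.0356, limma). In CB-1 the change of −0.17 did not pass the test (adjusted p = 0.482, limma). On the deposited scale c79620_g4 made up between 5.79% and 12.2% of the abundance of its component in the cold.

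In component c83700 the most abundant unigene was the cold-only one in the cold and c83700_g2 in the controls. The cold-only c83700_g7 was at 4.74 and 4.36 in KT1 and KT2, and 5.04 and 4.68 in CT1 and CT2, and held between 83.7% and 95.1% of the abundance of the component in the cold. Its partners c83700_g2, c83700_g6 and c83700_g8 fell in both cultivars, with log2 changes between −1.20 and −1.90 in K326 and between −1.47 and −1.76 in CB-1. The partner c83700_g5 was at 0 in all cold libraries, against 1.11 and 0.77 in KC1 and KC2 and 1.05 and 1.02 in CC1 and CC2. Its fall passed the threshold in CB-1 (−1.03, adjusted p = 0.0118, limma) and missed it in K326 by its size (−0.94, adjusted p = 0.0152, limma). The partners c83700_g5, c83700_g6 and c83700_g8 reached 1 in controls alone, so the filter admitted them through their control values.

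In c74097 partners moved both ways. The cold-only c74097_g3 had 4.66 and 4.52 in KT1 and KT2, and 5.12 and 4.82 in CT1 and CT2. The partners c74097_g1 and c74097_g6 rose by 5.76 and 4.11 in K326 and by 5.21 and 2.56 in CB-1. The partner c74097_g5 was at 0.28 and 0 in KT1 and KT2, and 1.91 and 0 in CT1 and CT2, against 3.89 and 4.77 in KC1 and KC2 and 4.52 and 2.99 in CC1 and CC2. It fell by 4.19 in K326 and by 2.80 in CB-1 (standard error 0.76 each, adjusted p = 0.00723 and 0.0291 by limma).

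**Figure D5:**
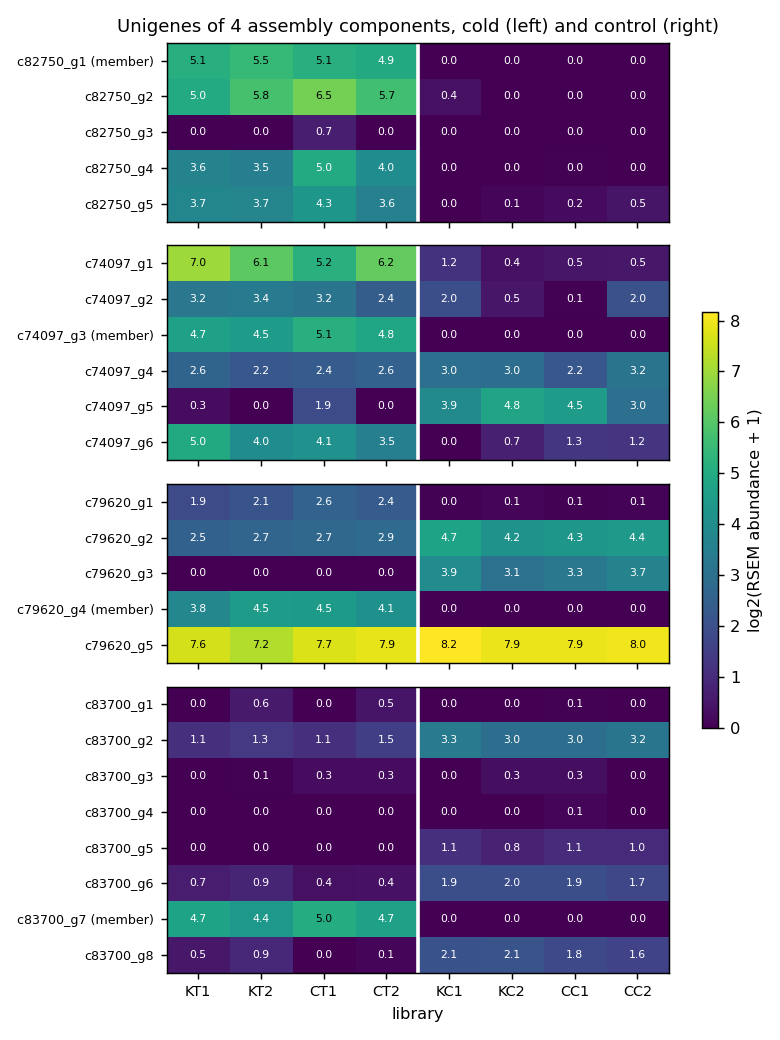
Deposited log2 value of every unigene of the components c82750, c74097, c79620 and c83700, with the cold libraries (KT1, KT2, CT1, CT2) left of the white line and the controls (KC1, KC2, CC1, CC2) right of it, coloured from 0 to 8.2. The cold-only unigene of each component is marked as member and is at 0 in every control, while c79620_g3 is at 0 in every cold library and at 3.09 to 3.93 in the controls.

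Component c70979 held the cold-only unigene with the third highest mean beside unigenes that were present in the warm. Its partner c70979_g1 had 5.59 and 5.75 in KT1 and KT2, and 5.33 and 5.72 in CT1 and CT2, against 6.15 and 6.06 in KC1 and KC2 and 5.95 and 5.87 in CC1 and CC2, log2 changes of −0.43 in K326 and −0.38 in CB-1 that were not called. The partner c70979_g2 rose by 1.96 in K326 and by 1.94 in CB-1 (adjusted p = 0.00275 and 0.00303, limma). In the cold c70979_g3 made up between 48.8% and 75.5% of the abundance of the component.

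In other components a partner was also at 0 in all controls. In c48505 the cold-only c48505_g2 had 4.18 and 4.85 in KT1 and KT2, and 6.11 and 5.11 in CT1 and CT2, while its partner c48505_g1 had 3.27 and 4.12 in KT1 and KT2, and 5.56 and 3.94 in CT1 and CT2. Both were highest in CT1 and lowest in KT1. The partner of c54515_g1, c54515_g2, had 4.68 and 3.22 in KT1 and KT2, and 2.50 and 4.01 in CT1 and CT2, with the same 2 libraries on top. In c78908 the partners c78908_g1 and c78908_g3 had cold values between 1.76 and 2.70 and were at 0 in the controls, whereas c78908_g4 was between 2.74 and 3.39 in all 8 libraries.

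A gene name could be attached to only 1 partner and to none of the 50. The part of the study's annotation sheet used here held 1999 unigenes, of which 2 were partners. The partner c86884_g3 is annotated there as pol, the polyprotein of an R2-type retrotransposon, a mobile element that copies itself through RNA. It was at 4.86 and 5.07 in KT1 and KT2, and 0.25 and 2.21 in CT1 and CT2, against 0 and 0 in KC1 and KC2 and 0 and 0.91 in CC1 and CC2. It rose in K326 (4.96, standard error 0.64, adjusted p = 0.00242, limma) and did not pass the test in CB-1 (0.77, standard error 0.64, adjusted p = 0.365, limma), though 0 unigenes of the whole table were called for a difference in response between the cultivars (9.2% were at an unadjusted p under 0.05, limma). The partner c86884_g3 reached 1 in cold libraries alone, so the filter admitted it through its cold values. Its component was chosen after these values were seen. The cold-only unigene of that component, c86884_g4, was at 4.75 and 4.19 in KT1 and KT2, and 3.92 and 3.98 in CT1 and CT2.

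Names were at hand for 61 unigenes, which the study chose in part on these samples and mostly as regulators of transcription, so their roles say nothing of the 50. Of the 61, 17 were at 0 in all 4 controls, 16 of which were above 0 in all 4 cold libraries. The highest was c63831_g1 (ELF4, a component of the circadian clock in Arabidopsis), at 6.29 and 5.85 in KT1 and KT2, and 6.20 and 6.41 in CT1 and CT2. CRF6 (c64865_g1, a cytokinin response factor) had 5.45 and 4.81 in KT1 and KT2, and 4.25 and 4.98 in CT1 and CT2, and HSFA4B (c77368_g4, a heat shock factor) had 5.87 and 4.92 in KT1 and KT2, and 3.73 and 4.64 in CT1 and CT2. In all 3, KT1 was above KT2 and CT2 above CT1, as in 9 of the 17.

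The other named unigenes of this kind were lower in at least 1 cold library. They include c71056_g1 and c71056_g2 (DREB2H), with lowest cold values of 2.77 and 2.20, c64765_g1 (DREB1F, of the DREB1 family of cold regulators), with 1.02, and c58192_g1 (HSFA6b), with 3.11. The lowest cold value of ELF4 (5.85) was exceeded by that of 7 of the 50 cold-only unigenes, for none of which a name was found in the sources used here.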

How the data were processed

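RNA-seq was done on leaves of K326 and CB-1 in 4 groups of 2 libraries, grouped by the cultivar and treatment on their labels. The labels do not say whether the 2 libraries of a group came from separate cultivations, so p-values measure the spread between these libraries only. The authors assembled the filtered reads de novo with Trinity, mapped them to the unigenes with bowtie and estimated abundances with RSEM. The deposited values are log2 values, with 3 decimals and a minimum of 0, and were read as log2(abundance + 1). The deposited table holds no counts, so no counting interval can be stated for a value. The study gives read totals for each library, which were not used here. By these totals replicate 1 was the shallower library of every group, most clearly in CT1 and KC1. Versions, the scaling of the abundance and any division by length are not given in the sources used here.

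Unigenes at exactly 0 in all 4 controls and at 3.5 or more in all 4 cold libraries were selected, without the 5 named above. The members and lists were chosen with earlier results of these data known. The 31884 unigenes that reached 1 in 2 or more libraries were tested with limma 3.58.1 in R 4.3.3 (variance moderated along the mean, Benjamini-Hochberg adjustment), in 1 fit of 4 group means. Calls needed an adjusted p under 0.05 and a difference over 1 in size. The study names a test of each unigene on its own, which leaves little to estimate a spread from with 2 libraries a group. Alternatives without moderation were run over all 4 groups and, added after the data were seen, over the cold libraries alone. Other alternatives were a pseudocount of 0.1 in place of 1, other filters, quantile and median-ratio scaling, other sets of libraries, the replicate number as a block and each library left out in turn.

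Unigenes named from the 50 were the 10 with the highest cold mean, the 5 with the largest difference between cultivars each way, those called, the 5 with the widest and the 5 with the narrowest spread (between replicates for the widest, over the 4 cold libraries for the narrowest), those sharing a component and those nearest the limit. Partners named were the 5 with the highest control mean, and unigenes named by the study were taken from those at 0 in all controls. A choice by control mean favours partners that were lower in the cold. The components c82750, c83700, c48505, c54515, c78908 and c86884, and other partners named beside these, were chosen after their values were seen. No sequence of these unigenes was used here, and annotation was read from a part of the study's sheet.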

Additional observations from a re-analysis of the deposited data

How the results depend on the processing

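The calls between the cultivars depended on the settings, while the number of component partners called changed little. The filter helped to set the partner counts in most settings, so their likeness adds no support. Over all unigenes, 129 were called for K326 cold against CB-1 cold, and the count was 217 without moderation of the variance, 111 (0.348%) with a pseudocount of 0.1, 225 with quantile normalization, 295 with median-ratio scaling, 820 with the controls as 1 group, and 0 with no filter on low values, with a filter over 4 libraries or with the cold libraries only. Leaving out 1 library, where the lone library of its group is assumed to vary like the other groups, gave between 0 and 719 (719 without CT2, 0 without any other). Of the 50 cold-only unigenes 2 were called, and the same 2 without moderation, with quantile normalization and with median-ratio scaling. These settings all keep the zeros of the controls in the estimate of the spread, so their agreement adds no support to the calls. By limma 0 were called with a pseudocount of 0.1 (12 at an unadjusted p under 0.05), with no filter (18), with a filter over 4 libraries (17) and with the cold libraries only (8), while 4 were called with the controls as 1 group, and leaving out 1 library gave between 0 and 4, with 4 without CT2. The numbers of the replicates were not taken to pair the libraries, since the labels name no shared batch. The replicate differences of K326 cold and CB-1 cold had a correlation of 0.02 over the unigenes tested. Those of K326 control and CB-1 control had a correlation of −0.38. Its negative sign goes with the likeness of KC2 and CC1 (median absolute difference 0.15), which have unlike replicate numbers. Tested on the 4 cold libraries alone without moderation, an alternative chosen after seeing the data, 32 of all unigenes (0.1%) and 0 of the 50 were called (5 of the 50 at an unadjusted p under 0.05). With the replicate number as a block, 0 of all unigenes and 0 of the 50 were called (limma, 16 of the 50 at an unadjusted p under 0.05, smallest adjusted p 0.125). The partner counts stayed at 25 in K326 and 24 in CB-1 in that fit. They were 28 and 26 with a pseudocount of 0.1, and 27 and 26 with the controls as 1 group. In every fit that includes the controls, the zeros there helped to set the counts at an unadjusted p, and nothing is read from them. With the cold libraries only, the share over all unigenes was 11% with moderation and was not computed without it. The difference of c68897_g1 lay between 1.22 and 1.46, and that of c113076_g1 between −1.34 and −1.16, when each library was left out. The median difference over the 50 lay between −0.034 (without KT replicate 1) and 0.26 when each cold library was left out, and 0.10 to 0.18 under the other scalings and pseudocount. The number of cold-only unigenes was 97 at a limit of 3, 37 at 4 and 56 with controls allowed up to 0.1, and between 54 and 68 when the rule was applied without 1 library. Partners called numbered between 24 and 26 in K326 and between 21 and 25 in CB-1 when each library was left out. With 2 libraries a group and no counts in the table, an exact 0 cannot be told apart from a level below detection, and a difference between cultivars that was not called is not shown to be absent.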

Other observations

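A further set of unigenes came close to the cold-only pattern. Of the 35 unigenes at 3.5 or more in all cold libraries and above 0 in exactly 1 control library, 16 had a value of at most 0.5 in that library. They were named after their values were seen. The highest was c65313_g1, with 9.16 in KT1 and 8.08 in KT2, and 7.72 in CT1 and 8.32 in CT2, against 0.12 in CC1 and 0 in the other controls. Next to it was c76692_g3, with 7.20 and 7.13 in KT1 and KT2, and 7.53 and 7.38 in CT1 and CT2, against 0.04 in CC1. The unigene c57566_g1 had 7.53 and 6.05 in KT1 and KT2, and 5.66 and 6.11 in CT1 and CT2, against 0.24 in KC1, and c65562_g1 had 7.30 and 6.49 in KT1 and KT2, and 5.81 and 7.39 in CT1 and CT2, against 0.41 in KC2. In these 4 unigenes the cold values were of the size found in the top 10 of the cold-only unigenes, so the difference between the sets lies in a single control value. Also among the 16 were c82750_g2 and c82750_g4, partners of the cold-only c82750_g1.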
